A study of Mus musculus with 12 samples.

Results

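Shelterin is the protein complex that coats the TTAGGG repeats at chromosome ends, and telomerase is the enzyme that adds those repeats. The genes described here are the 10 rows of the deposited count table, of 24421 entries, whose symbol is Terf1, Terf2, Terf2ip, Tinf2, Acd, Pot1a, Pot1b, Rtel1, Tert or Dkc1; they were chosen by name. RNA sequencing covered 12 male mice aged 4 months, 6 of C57Bl/6 (WT) and 6 of mdx/mTR, each by its tibialis anterior, a muscle of the shin. In mdx the dystrophin gene Dmd is mutated, and mTR stands for telomerase RNA, whose gene symbol is Terc. No group here carried the mdx part alone or the mTR part alone. Differences between the groups therefore cannot be assigned to either part, as the parts cannot be told apart. The labels give neither the generation nor the zygosity of the mdx/mTR mice, nor whether the groups share litters. They number the libraries without naming animals, so each library was taken as 1 mouse. The p-values set differences between the groups against the spread between libraries within them.

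In shelterin, TRF1 (gene Terf1) and TRF2 (Terf2) bind double-stranded repeats, and RAP1 (Terf2ip) is carried by TRF2. TIN2 (Tinf2) ties TRF1 and TRF2 to TPP1 (Acd), which holds POT1 on the single-stranded overhang and brings telomerase to the chromosome end. The mouse has a pair of POT1 genes, Pot1a and Pot1b, whose proteins share the overhang: POT1a restrains damage signalling and POT1b limits resection of the end. RTEL1 is a helicase that opens the telomere loop during replication. TERT is the reverse transcriptase of telomerase, and dyskerin (Dkc1) binds and stabilises its RNA, along with small nucleolar RNAs. Adult skeletal muscle is made mostly of nuclei that no longer divide.

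The telomerase RNA is the component that the mTR label concerns, so its template is shown first. Terc lies on the minus strand at chr3:96414437-96414859 of GRCm38. The capitals in the stretch below mark letters of the template (bases 29 to 36 of the GENCODE transcript), which is copied into telomere repeats. They were found by a search for these letters, so the edges of the template are not given.
Terc: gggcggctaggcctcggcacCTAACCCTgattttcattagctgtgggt
Terc had 2 counts in the whole table, both in WT replicate 3, so the label could not be checked on this gene. Dmd checked the mdx part of the label: WT mice had 228 to 244 CPM, a count relative to its library total scaled by TMM (trimmed mean of M-values), and mdx/mTR mice had 35.2 to 56.4 CPM, without overlap.

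The 6 WT libraries held 36903560 to 40981012 counts and the 6 mdx/mTR libraries 35136327 to 60330410. A count of 0 allows up to 3 counts, equal to 0.0460 to 0.0837 CPM, as counting error only. The TMM factors of the groups did not overlap (0.929 to 0.971 in WT, 0.988 to 1.16 in mdx/mTR). With library totals alone, the median of the log2 fold changes over the genes tested was 0.17 in place of 0.01, and the calls split into 5596 higher and 1560 lower in place of 3479 and 3257. Fold changes given without a scaling used TMM. All muscle fibre markers listed were detected in both groups. The other cell types differed between the groups: all 9 macrophage markers and all 6 tested of the 8 dividing-cell markers were higher in mdx/mTR, as were 6 of 7 markers of fibro-adipogenic progenitors, while 4 of 6 endothelial and 4 of 5 Schwann cell markers were lower. Of the other lists, 1 muscle fibre marker of 10 was higher and 3 lower, 4 of 6 myogenic progenitor markers were higher and 1 lower, 1 of 3 tested lymphocyte markers was higher, and none of 3 tested adipocyte markers passed.

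Of the 10 genes, 9 passed the filter on low counts and were tested; Tert did not pass. Terf1 and Acd were higher in mdx/mTR, Dkc1 was lower, and Terf2, Terf2ip, Tinf2, Pot1a, Pot1b and Rtel1 did not pass an adjusted p of 0.05 (edgeR quasi-likelihood test, Benjamini-Hochberg over 13937 genes). That is 3 of 9, where 48.3% of all genes tested passed. By direction, 2 of 9 were higher and 1 was lower, against 25.0% and 23.4% of all genes. The groups did not overlap for the same 3 genes, where 25.2% of genes tested had groups that did not overlap. The median log2 fold change of the 9 was 0.13, beside 0.01 for all genes tested; it was 0.05 without mdx/mTR replicate 5, 0.08 without WT replicate 3 and 0.28 with library totals alone. All 3 calls were kept in each of the 12 fits that left out a mouse. The authors' deposited table, in which 50.1% of genes passed, called the same 3 of these genes, with log2 fold changes of 0.32 for Terf1, 0.35 for Acd and -0.21 for Dkc1.

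**Figure D1:**
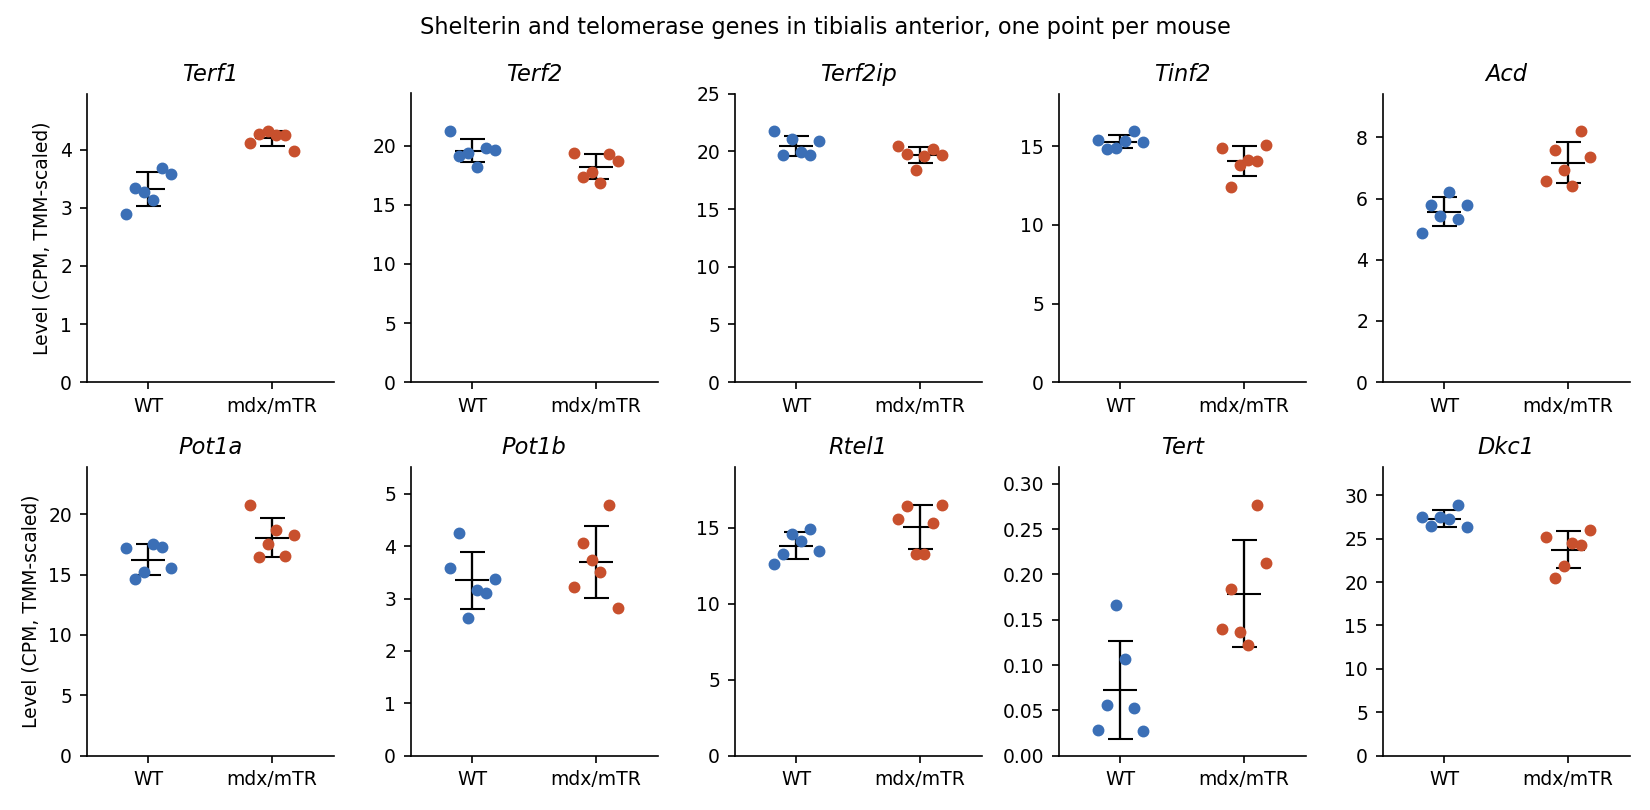
Level of each of the 10 genes in every mouse, in TMM-scaled CPM on axes that start at 0; points are mice, black bars the mean and SD of 6. The mdx/mTR points lie above all WT points for Terf1 and Acd and below them for Dkc1, and the groups overlap for the other 7 genes.

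Of the duplex-binding pair, only Terf1 passed the threshold. Terf1 (chr1:15805646-15844052, plus strand, GRCm38) had 104 to 141 counts per WT library and 158 to 278 per mdx/mTR library. Among WT mice Terf1 ran from 2.89 through a median of 3.31 to 3.68 CPM, and among mdx/mTR mice from 3.98 through 4.26 to 4.32 CPM. Every mdx/mTR mouse lay above every WT mouse. The coefficient of variation was 3.05% in mdx/mTR and 8.79% in WT. At these counts, fewer per library in WT, counting error is a large part of such a spread. A difference in spread between the groups was not tested. Terf1 rose 1.26-fold (95% interval 1.12 to 1.43; log2 fold change 0.34 ± 0.08 SE, edgeR adjusted p 0.0037). Terf2 (chr8:107069400-107096547, minus strand) ran from 18.2 through 19.5 to 21.2 CPM among WT mice and from 16.8 through 18.3 to 19.4 CPM among mdx/mTR mice. Its groups overlapped, and its fold of 0.93 had a 95% interval of 0.861 to 1.01 (edgeR adjusted p 0.130). RAP1, the partner of TRF2, was encoded by the gene with the smallest change of the 9: Terf2ip (chr8:112011398-112020528, plus strand) ran from 19.7 through 20.4 to 21.8 CPM among WT mice and from 18.4 through 19.7 to 20.5 CPM among mdx/mTR mice. The interval of its fold was 0.897 to 1.03 (edgeR adjusted p 0.313).

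The ratio of Terf1 to Terf2 counts within a library does not depend on how libraries are scaled. It ran from 0.137 through 0.174 to 0.187 among WT libraries and from 0.212 through 0.232 to 0.253 among mdx/mTR libraries. All 6 mdx/mTR libraries were above all 6 WT libraries. The ratio was 1.36 times higher in mdx/mTR, a log2 difference of 0.44 (two-sided exact permutation p 0.00216, the smallest that 6 against 6 can give; adjusted p 0.0032 over the 3 ratios tested). These ratios were picked with the changes of Terf1 and Acd already known, so they show the size of the shift between partners and are not separate support for those changes.

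Of the bridging subunits, Acd passed the threshold and Tinf2 did not. Acd (chr8:105695860-105701102, minus strand) had 175 to 234 counts per WT library and 254 to 494 per mdx/mTR library. It ran from 4.86 through 5.61 to 6.21 CPM among WT mice and from 6.40 through 7.15 to 8.20 CPM among mdx/mTR mice. Again the groups did not overlap. Acd rose 1.29-fold (95% interval 1.14 to 1.46; log2 fold change 0.37 ± 0.08 SE, edgeR adjusted p 0.0024). Tinf2 (chr14:55674689-55681820, minus strand) ran from 14.9 through 15.3 to 15.96 CPM among WT mice and from 12.4 through 14.1 to 15.1 CPM among mdx/mTR mice. Its groups overlapped, with 4 mdx/mTR mice below all WT mice, and its fold of 0.92 (95% interval 0.848 to 0.998) had an adjusted p of 0.0845 in edgeR. The ratio of Acd to Tinf2 counts ran from 0.316 through 0.373 to 0.406 among WT libraries and from 0.442 through 0.496 to 0.610 among mdx/mTR libraries, again without overlap. It was 1.40 times higher in mdx/mTR (log2 difference 0.49, exact permutation p 0.00216, adjusted p 0.0032).

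**Figure D2:**
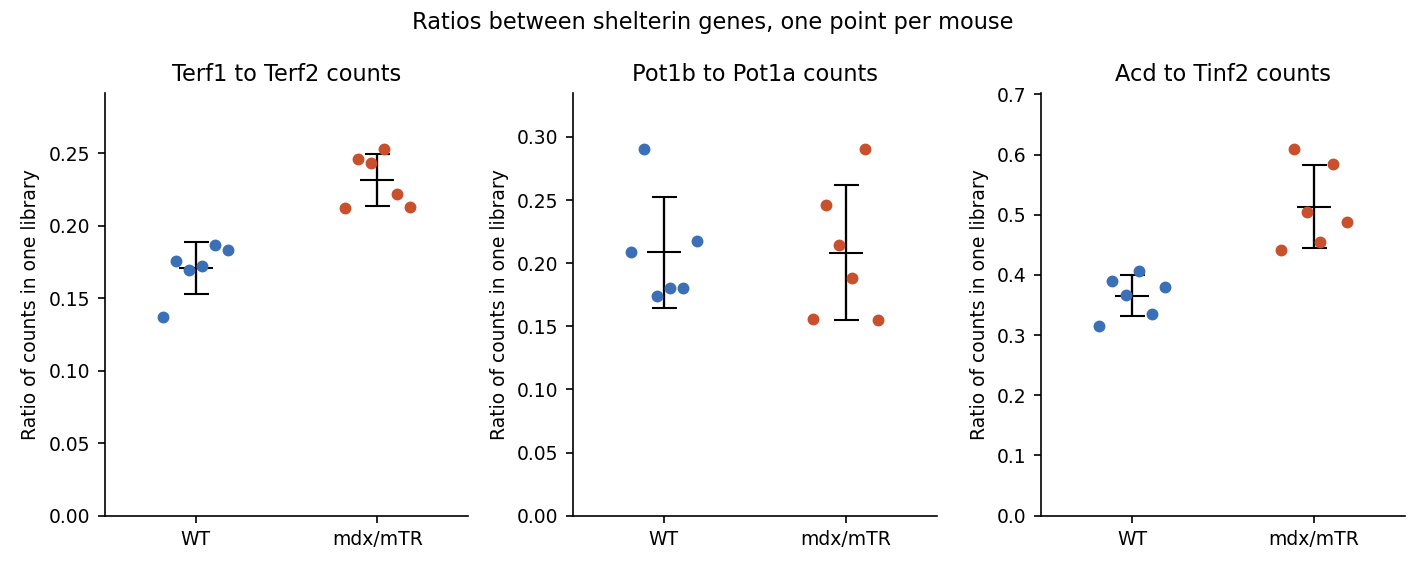
Ratio of the counts of paired shelterin genes in each library, with axes that start at 0; points are mice, black bars the mean and SD of 6. Terf1 to Terf2 and Acd to Tinf2 are higher in every mdx/mTR mouse than in any WT mouse, while Pot1b to Pot1a overlaps between the groups.

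Both bridging genes overlap a gene on the opposite strand, and the sources used here do not say whether counting used strand, so reads of each pair may not have been told apart. Acd shares 33.3% of its annotated exon bases with Carmil2 (chr8:105695860-105698187, an actin regulator), listed in the table under its older symbol Rltpr. Rltpr had 4 to 12 counts per WT library and 6 to 13 per mdx/mTR library, far fewer than Acd in every library. Tinf2 shares 31.2% of its exon bases with Gmpr2 (chr14:55676755-55679200, a guanosine monophosphate reductase). Gmpr2 was higher in mdx/mTR, with 2.91 to 4.62 CPM among WT mice and 3.88 to 4.92 CPM among mdx/mTR mice (log2 fold change 0.33, edgeR adjusted p 0.0280). The Gmpr2 call was lost without WT replicate 3, 5 or 6 and without mdx/mTR replicate 3 or 5, and the groups overlapped. How reads in the shared bases were assigned was not tested. Terf2ip shares 2.18% of its exon bases with Gm6793, which had no counts, and the other genes within the spans of Terf2, Pot1b and Dkc1, apart from Mpp1, share no exon base with them.

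The POT1 genes needed a check of their own, because the paralogs could take each other's reads. Their coding sequences, each of 1920 bases, were 78.8% identical over 1917 aligned bases. The stretch that follows surrounds their longest identical run in the coding sequence, 41 bases (positions 469 to 509 in both), which is in capitals.
Pot1a: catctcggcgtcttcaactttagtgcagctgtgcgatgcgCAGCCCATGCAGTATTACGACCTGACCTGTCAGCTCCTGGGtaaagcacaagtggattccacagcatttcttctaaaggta
Pot1b: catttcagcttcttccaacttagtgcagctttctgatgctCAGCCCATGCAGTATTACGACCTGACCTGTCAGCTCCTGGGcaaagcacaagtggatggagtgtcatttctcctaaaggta
No stretch of 50 bases of the longest Pot1a transcript occurred in a transcript of another gene, and 2.07% of the 50-base stretches of Pot1b did, none of them in Pot1a. Reads of that length or longer could therefore be told apart between the pair; the read length is not given in the sources used here.

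Pot1a (chr6:25743737-25809246, minus strand) ran from 14.6 through 16.4 to 17.6 CPM among WT mice and from 16.5 through 17.9 to 20.8 CPM among mdx/mTR mice. Of the mdx/mTR mice, 3 lay above all WT mice. Its fold of 1.11 (95% interval 1.001 to 1.23) had an edgeR adjusted p of 0.0883 with TMM and 0.0321 with upper quartile scaling. Pot1b (chr17:55651951-55712628, minus strand) was the most variable of the 9 genes between mice, with coefficients of variation of 16.1% in WT and 18.6% in mdx/mTR. It ran from 2.64 through 3.26 to 4.24 CPM among WT mice and from 2.82 through 3.63 to 4.79 CPM among mdx/mTR mice, almost the same span. The interval of its fold, 0.894 to 1.36 (edgeR adjusted p 0.437), covers a change as large as that of Terf1 or Acd. The ratio of Pot1b to Pot1a counts was 0.174 to 0.291 among WT libraries and 0.155 to 0.290 among mdx/mTR libraries, a log2 difference of -0.02 (exact permutation p 0.957, adjusted p 0.957).

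The RefSeq promoter windows of GRCm38.p6 (250 bases before to 50 after a start site) held 9 of the 10 genes, all but Terf1. The windows of the POT1 pair are shown because these paralogs share a motif, and those of Acd and Dkc1 because these genes passed the threshold in opposite directions. Capitals mark matches, on either strand, to the 7 motifs that are spelled out after the windows. The windows are chr6:25809169-25809468, chr17:55712587-55712886 and chr8:105701179-105701478, each on the minus strand, and chrX:75095604-75095903 on the plus strand. The Acd window lies wholly upstream of the GENCODE span of Acd, which ends at chr8:105701102. It therefore does not hold the start annotated there, and its motifs describe the RefSeq window only.
Pot1a: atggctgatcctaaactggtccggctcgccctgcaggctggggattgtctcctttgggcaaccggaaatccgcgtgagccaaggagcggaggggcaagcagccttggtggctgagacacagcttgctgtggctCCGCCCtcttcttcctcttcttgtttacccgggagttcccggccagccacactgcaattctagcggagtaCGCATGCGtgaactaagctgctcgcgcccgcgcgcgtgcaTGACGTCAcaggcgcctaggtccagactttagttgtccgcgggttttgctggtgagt
Pot1b: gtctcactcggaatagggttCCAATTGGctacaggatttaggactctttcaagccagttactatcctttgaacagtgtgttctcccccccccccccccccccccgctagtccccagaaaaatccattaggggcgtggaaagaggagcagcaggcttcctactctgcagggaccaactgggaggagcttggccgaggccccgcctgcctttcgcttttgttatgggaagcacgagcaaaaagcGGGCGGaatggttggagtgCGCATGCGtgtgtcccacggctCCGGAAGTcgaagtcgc
Acd: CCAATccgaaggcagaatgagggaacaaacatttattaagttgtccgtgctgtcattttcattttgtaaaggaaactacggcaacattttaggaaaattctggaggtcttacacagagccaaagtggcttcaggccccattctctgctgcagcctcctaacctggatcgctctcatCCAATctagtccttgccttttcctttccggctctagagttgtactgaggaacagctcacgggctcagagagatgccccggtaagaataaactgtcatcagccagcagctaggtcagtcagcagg
Dkc1: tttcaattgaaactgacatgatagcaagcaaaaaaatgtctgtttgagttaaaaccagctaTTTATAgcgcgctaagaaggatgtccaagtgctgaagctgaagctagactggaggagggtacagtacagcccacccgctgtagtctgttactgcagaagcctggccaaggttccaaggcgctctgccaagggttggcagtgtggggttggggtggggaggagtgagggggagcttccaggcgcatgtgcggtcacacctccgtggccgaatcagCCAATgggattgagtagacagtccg
The NRF1 core, spelled CGCATGCG, was in the windows of Pot1a and Pot1b and in 1.87% of all 32851 windows. The cyclic AMP element, TGACGTCA, was in those of Tinf2 and Pot1a and in 1.79% of all windows, and the ETS motif, CCGGAAGT, in that of Pot1b and in 3.89%. The GC box, GGGCGG, was in 6 of the 9 (Terf2, Terf2ip, Pot1a, Pot1b, Rtel1 and Tert) and in 35.7% of all windows. Tinf2, Acd and Dkc1 had none. The letters CCAAT were in 4 of the 9 (Terf2, Acd, Pot1b and Dkc1) and in 37.4% of all windows. In Pot1b these letters overlap on the opposite strands. Dkc1 had TATAAA, on the reverse strand, which 13.6% of windows hold. None of the 9 had the E-box, CACGTG, which 7.15% hold. A match is a description of the letters, not of a bound site, and the motifs were chosen after the sequences had been seen.

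The helicase gene Rtel1 (chr2:181319739-181356616, plus strand) ran from 12.6 through 13.8 to 14.9 CPM among WT mice and from 13.3 through 15.5 to 16.5 CPM among mdx/mTR mice. In mdx/mTR, 4 mice lay above all WT mice and the other two lay within the WT range. Its fold was 1.09 (95% interval 0.982 to 1.21, edgeR adjusted p 0.160).

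Dkc1 (chrX:75095854-75109777, plus strand) was the most abundant of the 10 genes and the one that fell. It ran from 26.3 through 27.4 to 28.9 CPM among WT mice and from 20.5 through 24.4 to 26.03 CPM among mdx/mTR mice. The groups did not overlap, but the gap between the lowest WT and the highest mdx/mTR mouse was small beside the spread within mdx/mTR. Its fold was 0.869 (95% interval 0.796 to 0.949; log2 fold change -0.20 ± 0.06 SE, edgeR adjusted p 0.0120). This call was lost with library totals alone (log2 fold change -0.05, adjusted p 0.513), although relative to the median of all genes Dkc1 stood at -0.22 under both scalings. Mpp1, a membrane scaffold gene on the opposite strand, ends within the last 45 bases of Dkc1 (chrX:75109733-75109777). Mpp1 rose, with 12.7 to 16.5 CPM among WT mice and 28.1 to 31.8 CPM among mdx/mTR mice (log2 fold change 1.11, edgeR adjusted p 9.0e-08), while Dkc1 fell.

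**Figure D3:**
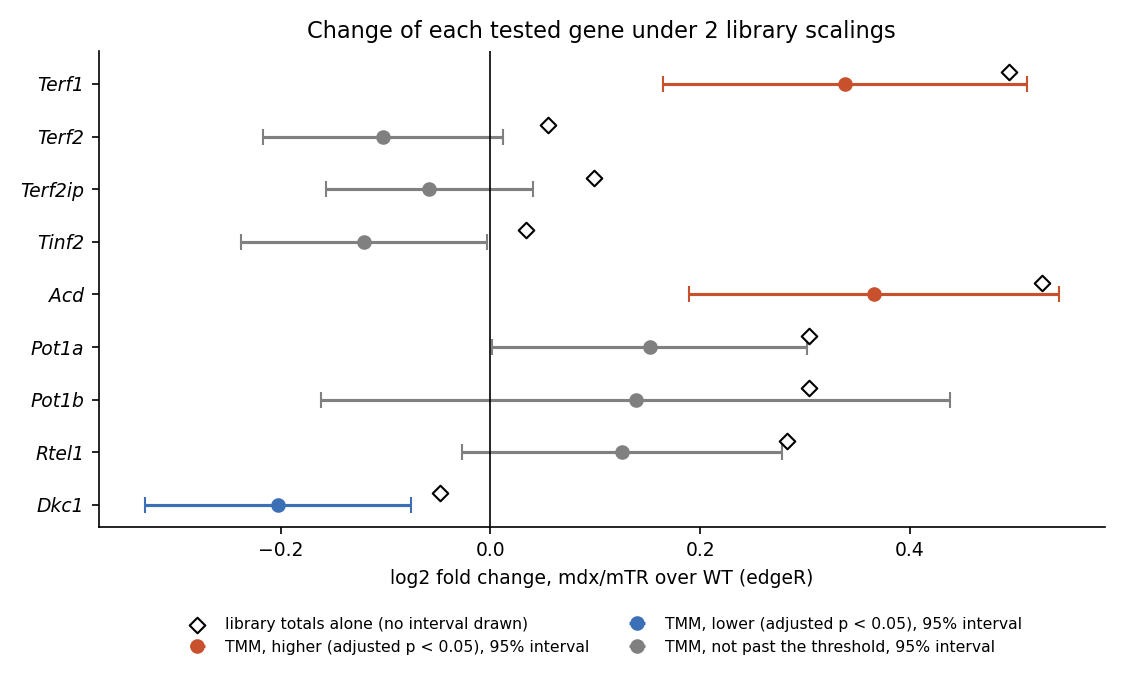
Change from WT to mdx/mTR (log2 fold change) of the 9 tested genes: filled points are TMM values with 95% intervals, coloured by call, and open diamonds are values with library totals alone. Library totals move every gene to the right by about the same step, which takes Terf2, Terf2ip and Tinf2 across 0.

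Tert (chr13:73626911-73649843, plus strand) stood near the limit of detection. The WT libraries, in order of replicate, held 1, 2, 6, 4, 2 and 1 counts and the mdx/mTR libraries 8, 12, 5, 6, 13 and 13. As CPM, the WT values were 0.0274 to 0.167 (median 0.0540) and the mdx/mTR values 0.123 to 0.277 (median 0.162). In WT, 4 of the 6 libraries were under 3 counts, while all 6 mdx/mTR libraries were above it. These counts are not scaled for library totals, which reached 40981012 in WT and 60330410 in mdx/mTR. In CPM, too, the groups overlapped through WT replicate 3. With a sum of 16 counts over the WT libraries and 57 over the others, Tert fell under the filter. Without a filter its fold was 2.41 (95% interval 1.28 to 4.54, edgeR adjusted p 0.0303), in a fit where 35.4% of 19290 genes passed and 19.0% were higher. A two-sided exact permutation test of mean CPM, added after the values had been seen, gave a difference of 0.106 CPM (p 0.0130), and 0.00433 to 0.0260 with a mouse left out. The authors' deposited table gives Tert a log2 fold change of 0.86, smaller than the 1.27 of the fit without a filter. That table marks Tert as low, with no adjusted p.

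Markers of other cell types also differed between the groups, in both directions. Whether they moved with these genes from mouse to mouse was not tested. The summed level of the 9 macrophage markers was 90.99 to 158 CPM among WT mice and 268 to 752 CPM among mdx/mTR mice. That of the 8 dividing-cell markers was 1.31 to 12.4 CPM among WT mice and 5.45 to 37.4 CPM among mdx/mTR mice, and that of the 8 lymphocyte markers was 0.555 to 2.54 and 2.18 to 4.62 CPM. Summed markers of fibro-adipogenic progenitors were at 903 to 1632 CPM among WT mice and 2267 to 4484 CPM among mdx/mTR mice. None of the markers in these 4 lists was at 0 throughout a group. Summed endothelial markers went the other way, at 474 to 631 CPM among WT mice and 377 to 495 CPM among mdx/mTR mice. So did summed Schwann cell markers, at 41.8 to 53.3 and 22.3 to 34.6 CPM. The part of such cells in the values of Terf1, Acd, Dkc1 and Tert was not tested, and in a whole muscle fewer cells of a type and less RNA per cell cannot be told apart.

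To compare genes with each other, CPM was divided by the length of the longest coding transcript in GENCODE M21, which may not be the model the authors counted on. In WT, Dkc1 was highest at 9.74 ± 0.336 CPM per kilobase (SD, n = 6), followed by Terf2 (7.34), Terf2ip (5.76), Tinf2 (5.17), Pot1a (5.16), Rtel1 (3.14), Acd (1.77), Terf1 (1.46) and Pot1b (0.951). Tert was last, at 0.0168 ± 0.0126. Levels per kilobase of Tinf2 and Pot1a overlapped between WT mice, as did those of Acd and Terf1; the other neighbours in this order had ranges that did not overlap. The genes that rose, Terf1 and Acd, were thus among the lowest of shelterin per kilobase in both groups, at 1.85 and 2.28 CPM per kilobase in mdx/mTR. The mean of Pot1a (5.73) stood above those of Terf2ip (5.53) and Tinf2 (4.76) in mdx/mTR. Its range there, 5.23 to 6.60, overlapped that of Terf2ip, 5.16 to 5.76. This place of Pot1a held only with the longest transcript: per length of all annotated exons it was at 2.08 in mdx/mTR, below Terf2ip (3.97) and Tinf2 (2.85). With the summed length of all annotated exons the order of the WT means was different in part. Pot1a dropped below Rtel1 and Terf2 overlapped Terf2ip, while Dkc1, Acd, Terf1, Pot1b and Tert kept their places. Under that length the WT ranges of Rtel1 and Pot1a, of Pot1a and Acd, and of Terf1 and Pot1b overlapped too.

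**Figure D4:**
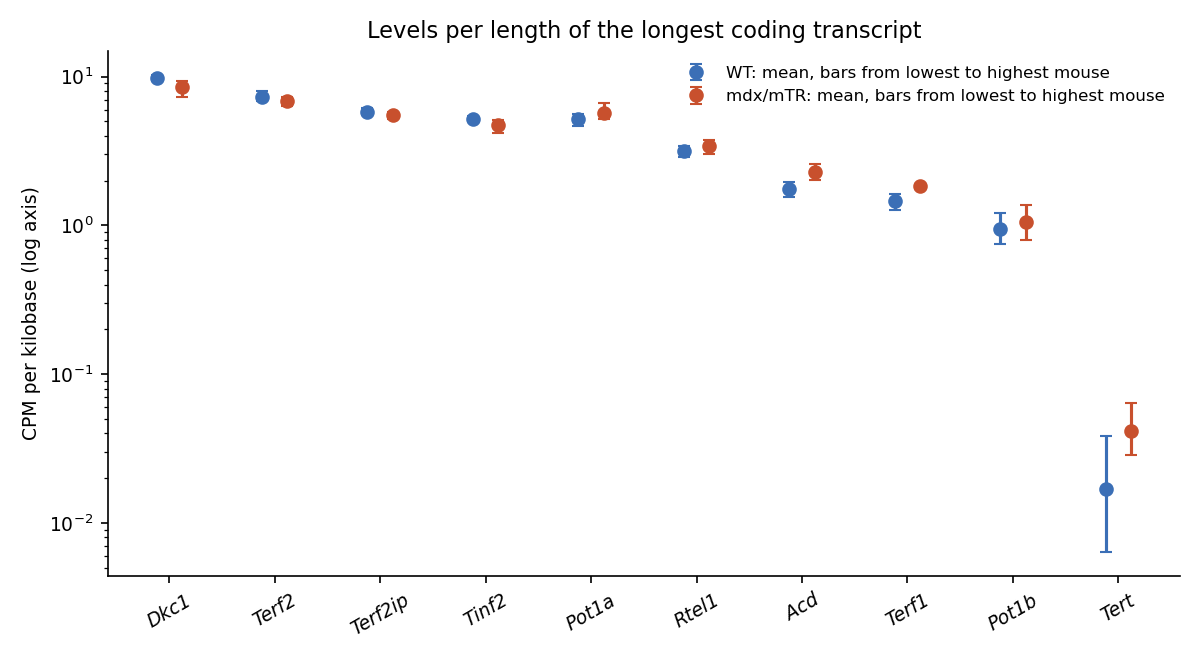
Level per kilobase of the longest coding transcript, on a log axis, in the order of the WT means; points are means of 6 mice and bars run from the lowest to the highest mouse. Levels span from Dkc1 at 9.74 to Tert at 0.0168 CPM per kilobase in WT, and the order differs between groups only in the places of Terf2ip, Tinf2 and Pot1a.

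Other genes of telomere biology were read from 4 lists that do not contain the 10 genes; the shares to set beside their counts are the 48.3% of all genes tested that passed, 25.0% higher and 23.4% lower. Of telomerase assembly and RNA maturation genes, 16 of 17 were tested, all but Terc; 4 were higher and 4 lower (8 of 16), with a median log2 fold change of -0.07. That median was -0.04 without mdx/mTR replicate 2 or 5 and 0.08 with library totals alone, where 4 were higher and 1 was lower. Tep1, a telomerase-associated protein that also sits in vault particles, rose by 0.51 on the log2 scale (edgeR adjusted p 8.3e-05), and Zcchc8, which takes part in nuclear RNA trimming, rose by 0.23 (adjusted p 0.0014). Papd5, the poly(A) polymerase that marks immature telomerase RNA, ran from 23.5 to 25.8 CPM among WT mice and from 19.2 to 20.2 CPM among mdx/mTR mice, without overlap (log2 fold change -0.32, edgeR adjusted p 3.6e-05). Ruvbl2, an ATPase of telomerase assembly, had a log2 fold change of -0.24 (adjusted p 0.0074), and -0.08 with library totals alone, where its call was lost. This list had 5 calls in place of 8 without WT replicate 1 and without WT replicate 6.

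Of 21 tested genes of telomere replication and end processing (23 listed), 4 were higher and 1 was lower, 23.8% of those tested, with a median of 0.14 (0.30 with library totals alone). Obfc1, the table's symbol for the CST subunit Stn1, ran from 3.48 to 4.47 CPM among WT mice and from 4.86 to 7.84 CPM among mdx/mTR mice (log2 fold change 0.63, edgeR adjusted p 0.0011). Pola1, the catalytic subunit of the polymerase that CST recruits, rose by 0.58 on the log2 scale (adjusted p 0.0022). Ctc1, the large CST subunit, was the gene that fell, with a log2 fold change of -0.14 (edgeR adjusted p 0.0391). That call was lost without WT replicate 2, 3, 5 or 6 and without mdx/mTR replicate 2 or 3, with upper quartile scaling, with no filter and with the filter of 1 CPM, and Ctc1 stood at 0.01 with library totals alone. The list had 3 calls without WT replicate 3, and with library totals alone 11 were higher and 0 lower.

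Among 17 shelterin partners and regulators, all tested, 1 was higher and 4 were lower, 29.4% of the list, with a median of -0.01. That median lay between -0.03 and 0.00 with a mouse left out and was 0.15 with library totals alone. Tnks2, a tankyrase that modifies TRF1, was the most abundant gene described here, at 338 ± 16.9 CPM (SD, n = 6) among WT mice and 241 ± 22.3 CPM (SD, n = 6) among mdx/mTR mice (log2 fold change -0.49, edgeR adjusted p 4.8e-05). Its groups did not overlap. Of the 3 genes of the MRE11 complex, which meets TRF2 at telomeres, 2 were lower and 1 was higher. Nbn was lower (-0.40, edgeR adjusted p 0.0012). Mre11a, named after its values were seen, was lower too (-0.22, adjusted p 0.0064), with 11.98 to 13.7 CPM among WT mice and 9.99 to 11.6 CPM among mdx/mTR mice, without overlap; its call was lost with library totals alone (-0.06, adjusted p 0.444). Rad50 was higher (0.21, adjusted p 0.0390). The Nbn and Mre11a calls were kept in each of the 12 fits that left out a mouse, and the Rad50 call in 3: without WT replicate 4 and without mdx/mTR replicate 2 or 6. The Rad50 call was also lost with no filter on low counts. With library totals alone the list had 6 higher and 2 lower.

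All 25 damage signalling and end joining genes were tested; 2 were higher and 9 lower, 44.0% of the list, beside 48.3% of all genes tested, with a median of -0.07. That median was -0.10 without mdx/mTR replicate 1 or 6 and 0.08 with library totals alone. Nhej1, an end-joining factor, had 3.01 to 4.70 CPM among WT mice and 4.94 to 11.7 CPM among mdx/mTR mice (log2 fold change 1.04, edgeR adjusted p 0.0018). Chek1, a checkpoint kinase of dividing cells, was at 0.164 to 0.363 CPM among WT mice and 0.227 to 0.844 CPM among mdx/mTR mice (log2 fold change 0.92, adjusted p 0.0455), a call kept in 4 of the 12 fits that left out a mouse: without WT replicate 2 and without mdx/mTR replicate 1, 4 or 6. It was also lost with no filter and in limma-voom. Parp1, a sensor of DNA breaks, was lower (-0.31, adjusted p 3.4e-04), and so was the checkpoint clamp loader Rad17 (-0.30, adjusted p 6.6e-04). With library totals alone the split in this list was 7 higher and 4 lower.

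**Figure D5:**
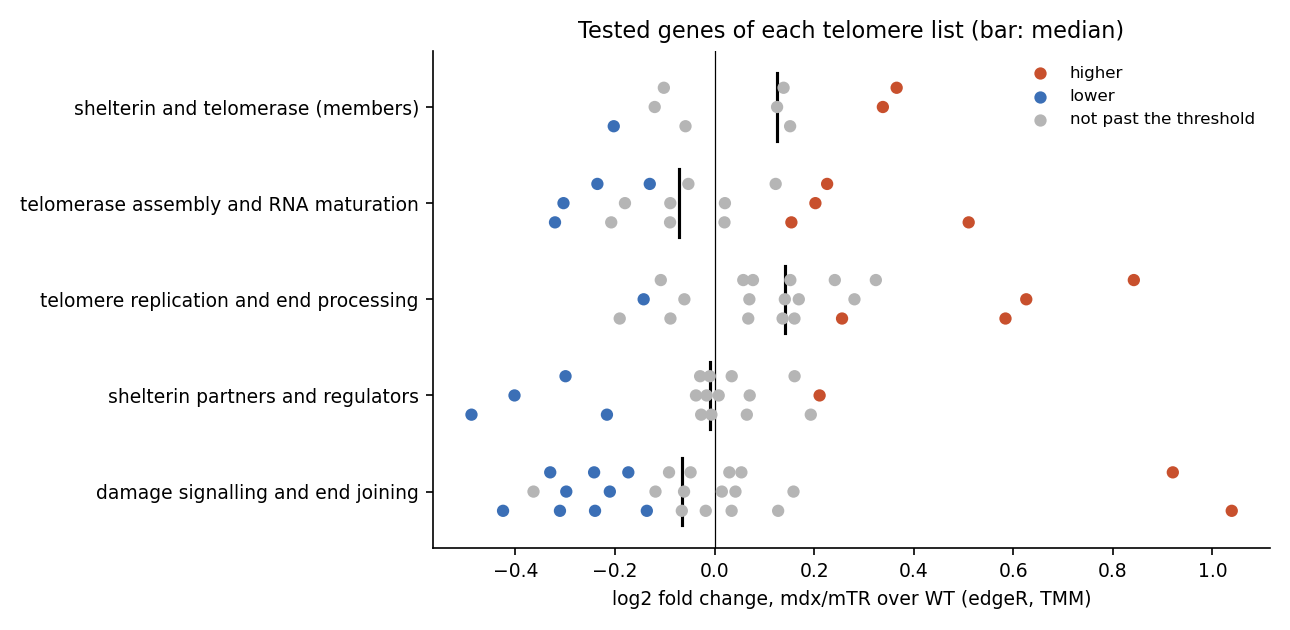
Change from WT to mdx/mTR (log2 fold change) of each tested gene, by list; colours give the call at an adjusted p of 0.05 and black bars the median of a list. The medians lie between -0.07 and 0.14, and the shelterin and telomerase genes stay between -0.20 and 0.37.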

How the data were processed

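Per the submitters' processing notes, reads were aligned with STAR to mm10 and compared with DESeq2, with no versions; the counter, annotation and strand handling are not given in the sources used here. The authors deposited whole-number counts per gene symbol for 12 libraries. The authors' deposited comparison has columns, per the file headers, for log2 fold changes, their errors, a score for the test, p-values and the normalized signal averaged over all libraries.

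The counts were tested with edgeR 4.0.16 in R 4.3.3: filterByExpr (13937 of 24421 entries kept), TMM scaling, group as the only term, glmQLFTest and Benjamini-Hochberg adjustment over all genes tested, with a threshold of 0.05. The SE is the log2 fold change divided by the square root of F, and 95% intervals use the t quantile at the fit's degrees of freedom. Ratios added 0.5 to each count and were compared by exact permutation in scipy 1.17.1. Simulated counts were used to test the procedure, with far fewer genes changed than were called here and equal numbers in each direction. They therefore do not test the choice of scaling. Replicate pairs differed by more than sampling noise (chi-square per degree of freedom 9.29 to 122). Transcript lengths, overlaps and sequences came from GENCODE M21 (GRCm38) and RefSeq. Alternatives were 3 other scalings, 2 other filters, DESeq2 1.42.0, limma-voom 3.58.1, a replicate block, each mouse left out and a threshold of 0.01. All 10 genes, Dmd and Terc, the 2 smallest p-values per direction of each list and the genes overlapping a member were named. The members, lists, ratios and tests were chosen with earlier results of these data known.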

Additional observations from a re-analysis of the deposited data

Results flagged for a closer look

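For all 10 genes and 3 ratios, each group of 6 libraries was searched for an extreme value by Dixon's criterion, the distance to the nearest library as a share of the range. Of 26 sets of values 1 passed the 95% critical value, and chance gives about 1.3. The log2 ratio of Terf1 to Terf2 was lowest in WT replicate 1, at -2.87 against -2.56 to -2.42 in the other WT libraries (ratio of gap to range 0.687). That library had the lowest Terf1 (2.89 CPM) and the highest Terf2 (21.2 CPM) of the WT libraries. Without it the difference between the groups in this log2 ratio was 0.38 in place of 0.44, and the groups still did not overlap.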

How the results depend on the processing

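Of 189 values of the 9 tested genes under the alternatives, 181 kept their direction and their side of the threshold. With library totals alone the log2 fold changes of Terf2 (0.055), Terf2ip (0.10) and Tinf2 (0.034) were positive and not past the threshold, Pot1a (0.30, adjusted p 0.0010) and Rtel1 (0.28, adjusted p 0.0090) passed it, and Dkc1 did not (-0.05); that scaling keeps a shift of all genes that TMM removes. Pot1a also passed with upper quartile scaling (0.19), and Dkc1 (adjusted p 0.0120) missed a threshold of 0.01. The ratio of Pot1b to Pot1a had a log2 difference of -0.12 to 0.08 with each mouse left out, and was positive without WT replicate 2 (0.0832) and without mdx/mTR replicate 1 (0.0592), 4 (0.00331) or 6 (0.0606). The other two ratios kept their direction and call under every alternative run (0.38 to 0.47 for Terf1 to Terf2 and 0.43 to 0.53 for Acd to Tinf2 with a mouse left out).

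For the lists, library totals alone gave 5 calls of telomerase assembly and RNA maturation genes, 11 of telomere replication and end processing and 8 of shelterin partners and regulators. At an adjusted p of 0.01 the counts were 4, 2 and, for damage signalling and end joining, 7. With a mouse left out they ran from 5 to 7, 3 to 6, 4 to 5 and 8 to 11 in the order of the text. The count of all genes ran from 6076 to 7156 at 0.05 and was 4621 at 0.01.

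Libraries with the same replicate number had correlations of deviations from -0.155 to 0.354. Of the 6 numbers, 2 correlated best with their own: replicate 1 (0.354) and replicate 2 (0.285). These values have no null to set beside them and cannot settle whether equal numbers pair libraries. The main fit used no pairing. Fitted with a replicate block, 6420 genes were called, and the same 3 of the 10 genes: Terf1 (0.34), Acd (0.36) and Dkc1 (-0.21). The block ended the calls of Ctc1, Rad50 and Gmpr2. Depth limited Tert, for which 1 WT read is a large part of the value.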
